A study of Homo sapiens with 4 samples.

Results

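The MHC class II genes comprised 10 genes chosen by symbol: the transactivator CIITA, the invariant chain CD74, the alpha and beta chains of the classical class II molecules (HLA-DRA, HLA-DRB1, HLA-DPA1, HLA-DPB1, HLA-DQA1 and HLA-DQB1) and the chains of the peptide-exchange molecule HLA-DM (HLA-DMA and HLA-DMB). All 10 were found, each under a single gene identifier, among 58174 genes. They were measured by RNA-seq of total RNA in 4 libraries of Daoy, an established human medulloblastoma cell line: 2 EED-knockout and 2 wild type. No other treatment or allele is stated. EED belongs to the core of PRC2, the Polycomb complex that trimethylates lysine 27 of histone H3 at silenced genes, and the series is about differences in that complex in medulloblastoma. The sources used here do not say whether a genotype is 1 clone or several, where the lesion in EED lies, or whether its libraries came from separate cultures, so the spread that the tests rest on may be technical.

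Class II molecules are heterodimers that carry peptides from the endosomal pathway to the cell surface for CD4+ T cells. They are made mainly by B cells, dendritic cells and macrophages, and many other cells make them after interferon gamma. CIITA does not bind DNA itself: it joins a complex of RFX, CREB-family and NF-Y factors on the X and Y boxes before class II genes, CD74 and the HLA-DM genes. In many tumor lines CIITA is silenced, and EZH2, the catalytic partner of EED, has been tied to that silencing.

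The promoters were searched for the X and Y boxes, since shared elements are why a common pattern could be looked for. RefSeq promoter sequences (GRCh38.p14, 250 bases before to 50 after the start) were matched for 8 of the 10 genes, in 9 promoters, since HLA-DPA1 had more than one. The Y box core was searched as ATTGG and the X box core as ACTGATG, both on either strand, and these 2 motifs cannot overlap. The Y box core stood in 7 of the 9 promoters, against 34.6% of all 35116 promoters of the same length, and the X box core in 3, against 2.39%. The 70 bases around the Y box core are given 5′ to 3′ on the gene's strand for the 5 genes that hold it on that strand, with both cores in capitals.
HLA-DRB1: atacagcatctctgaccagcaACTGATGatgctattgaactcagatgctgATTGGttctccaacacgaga
HLA-DMA: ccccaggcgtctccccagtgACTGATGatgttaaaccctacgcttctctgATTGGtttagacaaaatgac
HLA-DQA1: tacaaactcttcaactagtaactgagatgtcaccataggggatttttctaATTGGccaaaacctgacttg
HLA-DQB1: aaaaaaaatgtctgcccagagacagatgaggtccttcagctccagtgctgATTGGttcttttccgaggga
HLA-DPB1: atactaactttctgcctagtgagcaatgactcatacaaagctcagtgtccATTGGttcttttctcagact
These windows lie at chr6:32589875-32589944 (minus strand), chr6:32953157-32953226 (minus strand), chr6:32637288-32637357 (plus strand), chr6:32666726-32666795 (minus strand) and chr6:33075841-33075910 (plus strand), in the order printed. In HLA-DRB1 and HLA-DMA the cores were 22 and 23 bases apart, and the Y box core began 46 and 79 bases before the start. HLA-DMB held the X box core, and the Y box core on the other strand. CD74 held only the Y box core, also on the other strand. Neither core was found in the promoters of HLA-DPA1. A match is a description of letters and says nothing about which factor was bound in these cells.

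The libraries held 19022736 and 18164045 estimated counts in the EED-knockout libraries, against 19106382 and 17836112 in the wild type libraries. EED itself had 340 and 490 counts in the knockout libraries, against 626 and 500 in the wild type libraries, with a log2 fold change of -0.49 (edgeR adjusted p = 0.878). Knockout 2 was close to wild type 2, and since the lesion is not stated the RNA level does not check the labels. VIM, an intermediate filament gene, had at least 3091 TPM in every library and GLI2, an effector of hedgehog signalling, 18.3 to 43.8 TPM, while ATOH1, a granule neuron progenitor factor, was listed at 0 in all 4. Of 16 markers of B cells, macrophages and dendritic cells, 4 to 6 had no count in a library, TYROBP had none in any, and the list summed to 4.79 and 4.92 TPM in the knockout libraries, against 3.53 and 6.22 TPM in the wild type libraries. The most abundant of them were the integrin ITGAX (mean 1.34 TPM over the 4 libraries) and the endotoxin co-receptor CD14 (0.750 TPM). In bulk RNA, fewer cells that make a transcript and less of it per cell cannot be told apart.

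In these cells class II transcripts were scarce, and no member passed the test between genotypes. HLA-DPB1, HLA-DPA1 and HLA-DQB1 were the most abundant per length, with means over the 4 libraries of 21.6, 18.1 and 12.4 TPM (abundance scaled for transcript length and library total). HLA-DMA (2.42 TPM), HLA-DQA1 (2.07 TPM), CD74 (1.61 TPM) and HLA-DRA (1.34 TPM) followed. HLA-DRB1 (0.910 TPM), HLA-DMB (0.825 TPM) and CIITA (0.506 TPM) were lowest. Neighbours in that order overlapped between libraries, except at the gap between the HLA-DP and HLA-DQB1 genes and the rest. These values sum all transcripts of a gene. HLA-DQB1-009, a 428-base transcript without coding bases, gave 5.107 and 4.119 TPM in knockout and 6.638 and 11.003 TPM in wild type. On protein-coding transcripts alone the gap almost vanished. HLA-DQB1 in knockout 1 then lay only just above HLA-DQA1 in wild type 2, which had 3.983 TPM. For scale, B2M, the class I light chain, averaged 2740 TPM. The 10 genes summed to 52.3 and 66.7 TPM in the knockout libraries, against 64.1 and 63.9 TPM in the wild type libraries, so the totals overlapped.

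**Figure D1:**
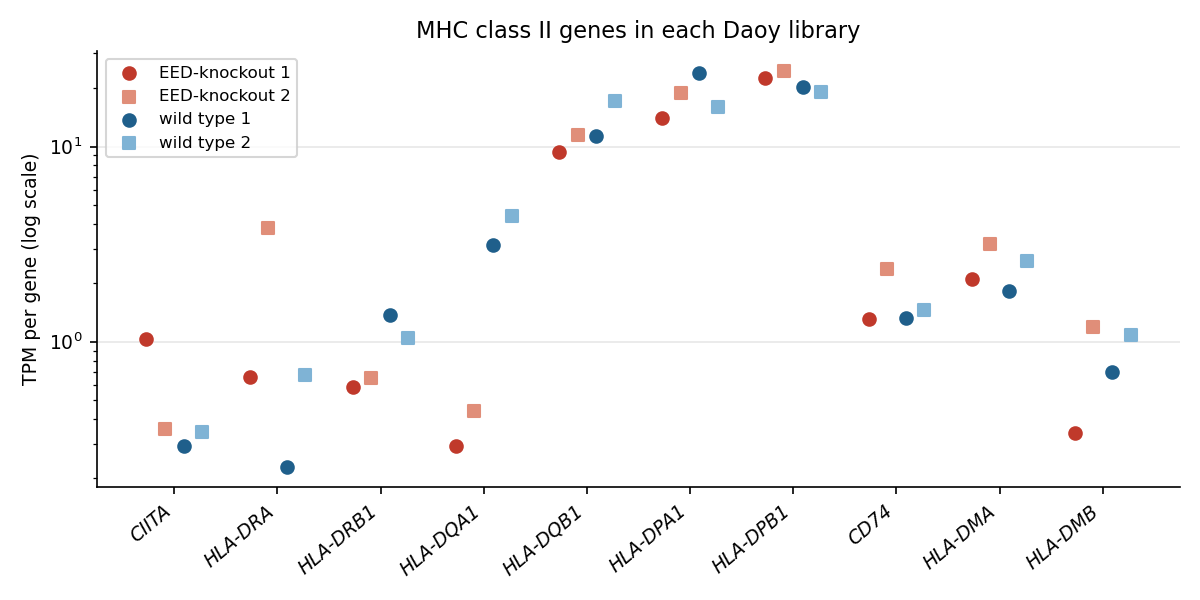
TPM per gene on a log axis for the 10 class II genes, with 1 point per library (red, EED-knockout 1 and 2; blue, wild type 1 and 2). HLA-DQA1 stands apart by genotype (0.291 and 0.441 TPM in knockout, 3.14 and 4.40 TPM in wild type), HLA-DRA is high in knockout 2 alone, and HLA-DPB1, HLA-DPA1 and HLA-DQB1 sit above the rest.

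Genotypes were compared with edgeR's quasi-likelihood test over 18349 genes, with p-values adjusted over all of them by the Benjamini-Hochberg method and a threshold of 0.05. It called 0 genes, or 0% (1082 genes, 5.90%, at an unadjusted p under 0.05), while DESeq2 called 68 and limma-voom 0. Of the 10 members 9 passed the filter on low counts, 0 were called by any of these tools, and 1 (HLA-DQA1) had an unadjusted p under 0.05. In CPM (counts scaled to library size) the genotypes did not overlap for 5 of the 9 tested members, against 35.8% of all genes. The knockout libraries were the higher ones for 1 member, CIITA (17.8% of all genes), and the lower ones for 4, HLA-DQA1, HLA-DRB1, HLA-DPA1 and HLA-DMB (18.0% of all genes). HLA-DRB1 entered the test only through its wild type libraries, so a gap was needed for it to be tested. The median log2 fold change of the tested members was -0.15, against 0.01 over all genes.

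**Figure D2:**
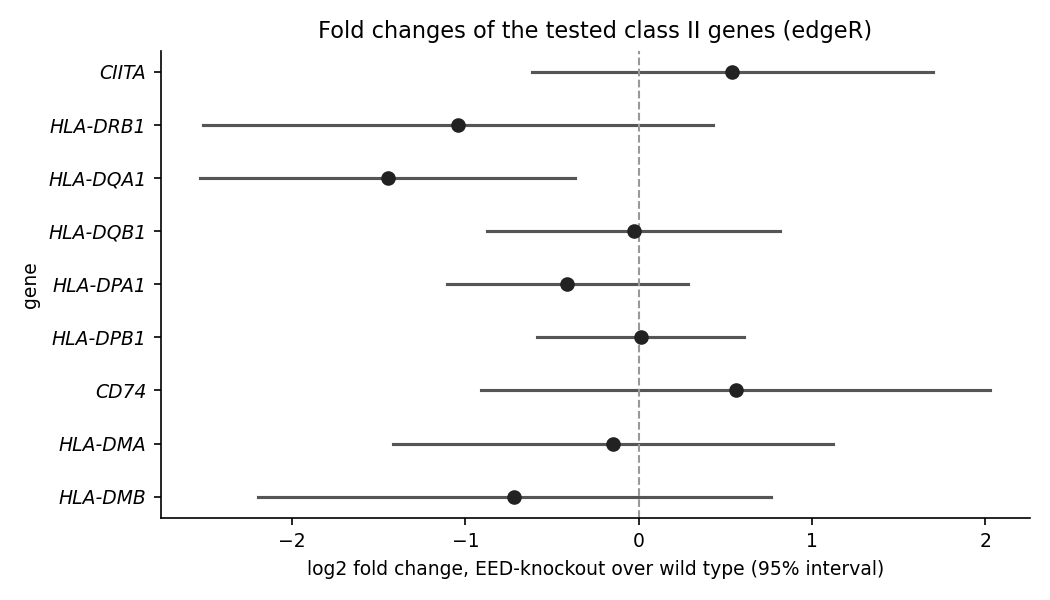
log2 fold change of EED-knockout over wild type for the 9 tested members, with the 95% interval of the edgeR fit. The interval excludes 0 for HLA-DQA1 alone (-2.53 to -0.37), before any adjustment for the 18349 genes.

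CIITA (chromosome 16, 10866222 to 10943021, GRCh38), the master regulator of the class, had 57.1 and 58.3 estimated counts in the knockout libraries, against 50.7 and 24.55 in the wild type libraries. The knockout libraries were close to each other and to wild type 1, and wild type 2 was low. CIITA averaged 3.05 ± 0.0689 CPM in knockout and 2.09 ± 1.01 CPM in wild type cells (SD, n = 2 each), a log2 fold change of 0.54 (95% interval -0.62 to 1.70, edgeR adjusted p = 0.915). It was 1.14 without wild type 1 but 0.12 without wild type 2. In TPM the order of the libraries was another one, at 1.03 and 0.355 in knockout and 0.291 and 0.344 in wild type. Most of the TPM of knockout 1 came from 2 counts on the 498-base transcript CIITA-014, which alone gave 0.653 TPM.

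Of all CIITA counts, 97.5% were assigned to 1 of its 15 transcripts, CIITA-001, which is 11952 bases long in the files and carries 3390 coding bases in GENCODE 29. CIITA-202, a 4657-base transcript with a coding part of 3393 bases, had 0 counts in all 4 libraries. In GENCODE 29 CIITA-001 is longer still, at 16059 bases, and the exons of CIITA share 2416 bases with DEXI, a gene on the opposite strand with 256 and 212 counts in the knockout libraries and 225 and 258 in the wild type libraries. The sources used here do not say whether the libraries keep strand, so reads of CIITA and of DEXI may not be separable there. The transcripts CIITA-013 and CIITA-014, which start farthest upstream, had 2 counts in knockout 1 and 0 in the other libraries. CIITA-008, which starts at 10878969, farther downstream than CIITA-001, had 1 count in wild type 2 and 0 elsewhere. How much of the CIITA counts came from spliced coding transcript cannot be told apart from these files.

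Among the tested chains of the classical class II molecules, HLA-DQA1 had the lowest log2 fold change and none was called. HLA-DQA1 (chromosome 6, 32628179 to 32647062), the alpha chain of HLA-DQ, had 19 and 28 counts in the knockout libraries, against 64 and 60 in the wild type libraries. The genotypes did not overlap, and the gap between them exceeded the difference within either pair. It averaged 1.25 ± 0.350 CPM in knockout and 3.42 ± 0.145 CPM in wild type cells (SD, n = 2 each). Its log2 fold change was -1.45 (95% interval -2.53 to -0.37). The unadjusted p was 0.0157 and edgeR's adjusted p was 0.799. Leaving out each library in turn gave -1.77 to -1.18.

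HLA-DQA1 was also examined by transcript. HLA-DQA1-001, the longest protein-coding transcript at 1591 bases, had 0 counts in both knockout libraries, against 29.1 and 18.3 in the wild type libraries. HLA-DQA1-007, a shorter protein-coding transcript, also had 0 in both knockout libraries, against 7.86 and 13.4 in the wild type libraries. HLA-DQA1-003, a 5450-base transcript annotated as retained intron, took all the counts of the knockout libraries, 19 and 28. It took 27.1 and 26.3 in the wild type libraries. Of its exon bases, 3410 lie past the end of the protein-coding transcripts and 1684 are shared with them. Where along it the counts fell cannot be told from these values, so they are not a measure of intron retention. The genotypes were thus apart for the coding transcripts and overlapped for the retained-intron one.

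Protein-coding transcripts of HLA-DQA1 summed to 0 of 19 and 0 of 28 counts in the knockout libraries, which allows shares of up to 15.8% and 10.7%. They made up 57.7% and 56.2% of the gene's counts in the wild type libraries, 1.95 ± 0.118 CPM (SD, n = 2). With 3 counts per library as the floor, that wild type mean was 12.2-fold above the mean knockout floor. This ratio takes kallisto's division between transcripts as exact, so it sets no minimum difference. HLA-DQA1-001 was not called among 56858 transcripts (edgeR adjusted p = 0.823), and it passed the filter only through its wild type libraries, so a gap was needed for it to be tested. The division between transcripts rests on kallisto's model, since 1517 of the 1591 bases of HLA-DQA1-001 are also in HLA-DQA1-003. The genotypes lay farther apart in TPM, which divides by transcript length: HLA-DQA1 had 0.291 and 0.441 TPM in knockout and 3.14 and 4.40 TPM in wild type. On that scale the difference was -1.79 for log2(TPM + 1) and -3.05 for log2(TPM + 0.1), with adjusted p of 0.512 and 0.702 in limma.

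**Figure D3:**
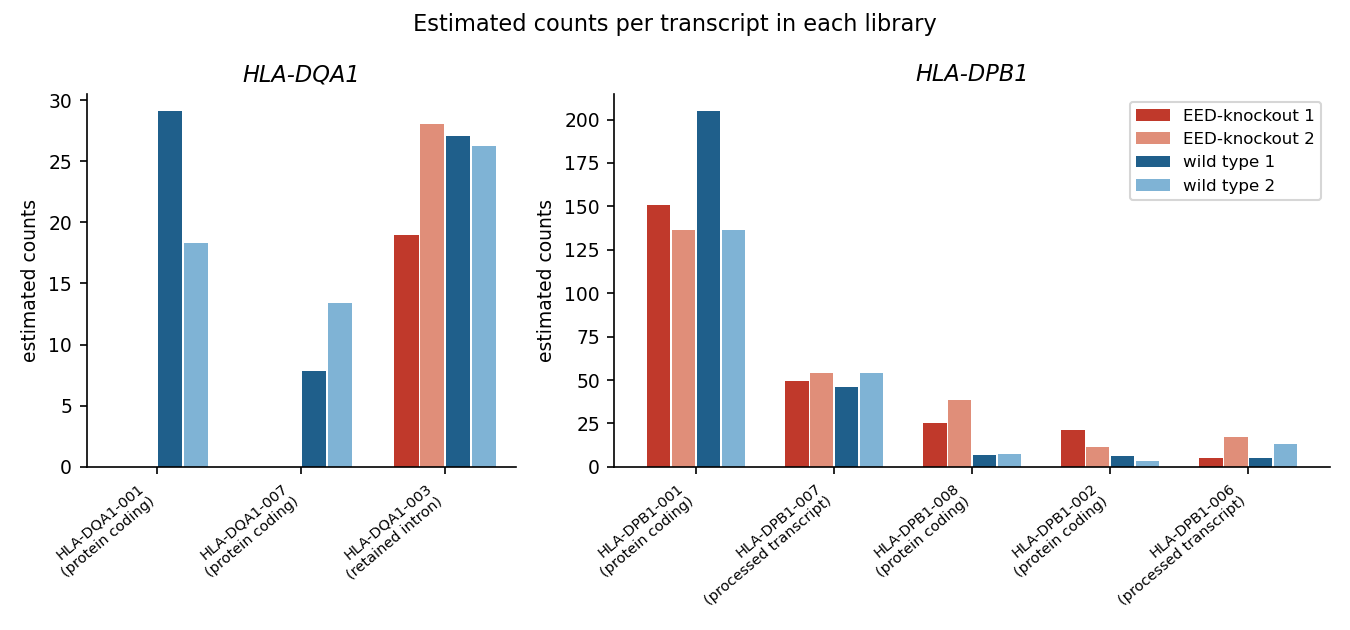
Estimated counts per transcript in each library for HLA-DQA1 (left) and HLA-DPB1 (right), with red bars for EED-knockout 1 and 2 and blue bars for wild type 1 and 2. HLA-DQA1-001 and HLA-DQA1-007 have no bar in either knockout library, and HLA-DPB1-008 is at 25.3 and 38.8 in knockout and 6.76 and 7.27 in wild type.

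HLA-DQB1 (32659467 to 32668383 on chromosome 6), the beta chain that pairs with HLA-DQA1, had no such gap between genotypes, and the difference between the chains was not tested. It had 106 and 163 counts in the knockout libraries, against 115 and 149 in the wild type libraries, so the genotypes overlapped. Its log2 fold change was -0.03 (95% interval -0.87 to 0.82, edgeR adjusted p = 0.995). Most of its counts were on the coding transcript HLA-DQB1-002, at 77.8 and 125.8 in knockout and 69.7 and 113.8 in wild type.

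The HLA-DP pair was the most abundant. HLA-DPA1 (33064569 to 33080775), the alpha chain, had 146 and 199 counts in the knockout libraries, against 236 and 206 in the wild type libraries. Knockout 1 was low, and knockout 2 lay just under wild type 2. Its log2 fold change was -0.41 (95% interval -1.11 to 0.28, edgeR adjusted p = 0.894), and the genotypes overlapped in TPM. HLA-DPB1 (33075926 to 33087201), the beta chain, had 261 and 262 counts in the knockout libraries, against 276 and 223 in the wild type libraries. The wild type libraries lay on either side of the knockout pair, and the log2 fold change was 0.01 (95% interval -0.59 to 0.61, edgeR adjusted p = 0.998). The genes are read in opposite directions and share 96 exon bases.

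No transcript of HLA-DPB1 was called. HLA-DPB1-001, the longest form at 1560 bases, had 150.9 and 136.3 counts in the knockout libraries, against 204.8 and 136.6 in the wild type libraries. HLA-DPB1-008, a 688-base form that starts 4561 bases farther downstream, had 25.3 and 38.8 in the knockout libraries, against 6.76 and 7.27 in the wild type libraries. Its log2 fold change was 2.12 (95% interval 0.37 to 3.87). HLA-DPB1-002, which starts 4746 bases downstream, had 21.0 and 11.4 in knockout and 6.33 and 3.41 in wild type. Both were higher in each knockout library than in either wild type library, and neither was called (edgeR adjusted p = 0.946 and 1). Both passed the filter only through the knockout libraries, so a gap was needed for them to be tested. HLA-DPB1-008 shares 640 of its 688 bases with HLA-DPB1-001, so its value also rests on the model, and both downstream forms overlap exons of HLA-DPA1 on the other strand, by 87 and 96 bases.

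Of the 76 transcripts listed for the 10 genes, 25 had no count in any library and 17 passed the filter. Among the 17, the knockout libraries were the higher ones without overlap for 3 and the lower ones for 5, against 17.7% and 17.6% of all transcripts tested. All 3 of the higher ones (HLA-DPB1-008, HLA-DPB1-002 and HLA-DQB1-005) passed the filter only through the knockout libraries, and 2 of the lower ones (HLA-DQA1-001 and HLA-DRB1-001) only through the wild type libraries, so the filter partly set these counts. edgeR called 0 transcripts, or 0% (2636, 4.64%, at an unadjusted p under 0.05), while DESeq2 called 443, none of them a member, and limma-voom 0. DESeq2 gave HLA-DQA1-001 and HLA-DPB1-002 no adjusted p, so it could not call them.

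HLA-DRA (32439842 to 32445046), the alpha chain of HLA-DR, had 9 and 51 counts in the knockout libraries, against 3 and 9 in the wild type libraries. Knockout 2 alone was high, while knockout 1 was level with wild type 2. HLA-DRA reached 10 counts in 1 library, did not pass the filter and has no test here. It averaged 1.60 ± 1.59 CPM in knockout and 0.331 ± 0.235 CPM in wild type cells (SD, n = 2 each). HLA-DRB1 (32578769 to 32589848), its beta chain, had 8 and 8.89 counts in the knockout libraries, against 20 and 14 in the wild type libraries. Its log2 fold change was -1.04 (95% interval -2.52 to 0.43, edgeR adjusted p = 0.881), and -1.30 with the counts of HLA-DRB5 and HLA-DRB6 added. The paralogs HLA-DRB5 and HLA-DRB6 had at most 4 counts in a library. Class II genes are highly polymorphic and kallisto used reference transcripts, so fragments of alleles unlike the reference may be missed. The genotypes come from the same line.

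None of the genes that load peptides was called. CD74, which escorts class II chains to endosomes, had 14 and 29.02 counts in the knockout libraries, against 12 and 16 in the wild type libraries, with knockout 2 highest. Its log2 fold change was 0.56 (95% interval -0.91 to 2.03, edgeR adjusted p = 0.937), and -0.07 without knockout 2. HLA-DMA had 19 and 26 counts in the knockout libraries, against 19 and 28.8 in the wild type libraries, which overlapped (log2 fold change -0.15, 95% interval -1.42 to 1.12, edgeR adjusted p = 0.985). Protein-coding transcripts took 20.3% and 23.1% of the HLA-DMA counts in knockout 1 and 2, and 25.6% and 77.1% in wild type 1 and 2. HLA-DMA-001, its longest protein-coding transcript, had 15.3 counts in wild type 2 and 0 elsewhere. HLA-DMB had 7.73 and 14.35 counts in the knockout libraries, against 15.01 and 19.52 in the wild type libraries, with knockout 1 lowest (log2 fold change -0.72, 95% interval -2.20 to 0.76, edgeR adjusted p = 0.911). Without knockout 2 it was -1.18. In TPM the genotypes overlapped for HLA-DMB, at 0.341 and 1.186 in knockout and 0.697 and 1.075 in wild type. HLA-DMA shares 55 exon bases with the abundant BRD2 on the opposite strand.

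Of the 10 members 8 lie on chromosome 6. Over 280 other tested genes within 10 Mb of HLA-DRA, the median deviation from the wild type mean (log2) was -0.285 for knockout 1 and 0.044 for knockout 2, with 0.033 and -0.033 for wild type 1 and 2. Without overlap, the knockout pair was the higher one for 18 of these 280 neighbours, against 17.8% of all genes. It was the lower one for 63, against 18.0% of all genes. With the neighbours' median subtracted in each library, the log2 difference was -1.28 for HLA-DQA1, -0.77 for HLA-DRB1, -0.54 for HLA-DMB, -0.30 for HLA-DPA1, 0.14 for HLA-DPB1, 0.07 for HLA-DQB1 and -0.005 for HLA-DMA. These differences are in log2 CPM with a prior count of 2, which shrinks differences at low counts. They are therefore not on the scale of the edgeR fold changes, and a change from those values is not the regional shift alone. The part of the regional shift in the members' values was not tested beyond that subtraction.

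The other genes of the class II route were taken from fixed lists. Of 11 further class II genes and pseudogenes, 2 passed the filter and 0 were called. The highest mean TPM were those of the pseudogene HLA-DRB9 and of HLA-DOB, a chain of the HLA-DM inhibitor HLA-DO. HLA-DRB9 had 2.55 and 0 TPM in knockout and 2.23 and 3.09 TPM in wild type. Those values rest on 3 and 0 counts in knockout and 3 and 4 in wild type, and HLA-DRB9 did not pass the filter. HLA-DOB had 4.96 and 29.3 counts in the knockout libraries, against 17.8 and 17.9 in the wild type libraries, with the knockout libraries on either side of the wild type pair. Among the members, CIITA, HLA-DRA, CD74 and HLA-DQB1 had their highest count in knockout 2, as did HLA-DOB. For CIITA knockout 1 was close, at 57.1 against 58.3. The share of all genes with their highest count in knockout 2 was not counted.

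The DNA-bound partners of CIITA and its coactivators all passed the filter, and 0 of 15 were called. Their median log2 fold change was -0.01. Both knockout libraries were the higher ones for 2 genes (against 17.8% of all genes) and the lower ones for 1 (against 18.0%). SMARCA4, the chromatin-remodelling ATPase, had 116 and 94.0 TPM in knockout and 125.7 and 106.6 TPM in wild type. RFXANK, an RFX subunit without which class II genes are silent, had 126.6 and 78.4 TPM in knockout and 84.3 and 86.3 TPM in wild type, with a log2 fold change of 0.18 (edgeR adjusted p = 0.945). It was high in knockout 1 and at the wild type level in knockout 2. The acetyltransferase KAT2B was the gene of this list with the largest log2 fold change, 0.29 (adjusted p = 0.929).

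Of 10 genes on the route from interferon gamma to CIITA, 0 were called and the median log2 fold change was -0.13. Both knockout libraries were the lower ones for 3 (against 18.0% of all genes) and the higher ones for 0 (against 17.8%). IFNGR2, the signalling chain of the receptor, had 1700 and 1217 counts in the knockout libraries, against 2166 and 1942 in the wild type libraries. The knockout libraries were both lower (log2 fold change -0.55, 95% interval -1.07 to -0.03, edgeR adjusted p = 0.826). IRF1, a factor that acts on the inducible CIITA promoter, had 69.8 and 87.4 TPM in knockout and 75.8 and 93.3 TPM in wild type, which overlapped. In CPM it was one of the 3 lower genes, at 74.3 and 87.2 in knockout and 96.3 and 104.5 in wild type (log2 fold change -0.32, edgeR adjusted p = 0.881). IRF2 had 172 and 346 counts in the knockout libraries, against 408 and 311 in the wild type libraries (log2 fold change -0.53, edgeR adjusted p = 0.893).

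Among 15 genes of endosomal processing and class II traffic 0 were called, and the median log2 fold change was 0.05. Both knockout libraries were the higher ones for 4 (against 17.8% of all genes) and the lower ones for 3 (against 18.0%). The tetraspanin CD63 (mean 448 TPM) and the protease CTSB (mean 265 TPM) were the most abundant. CTSS, the cathepsin that trims the invariant chain, had 1545 and 885 counts in the knockout libraries, against 3045 and 1784 in the wild type libraries. Both pairs were widely spread without overlapping, and the log2 fold change was -1.05 (95% interval -1.86 to -0.23, edgeR adjusted p = 0.799). CST3, a cathepsin inhibitor, had 5 and 264 counts in the knockout libraries, against 269 and 522 in the wild type libraries. Knockout 1 stood alone, and the log2 fold change of -1.60 (edgeR adjusted p = 0.895) was -6.34 without knockout 2 (adjusted p = 0.012).

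Of 15 tested genes of the class I route 0 were called. For 10 both knockout libraries were the lower ones (against 18.0% of all genes) and for 0 the higher ones (against 17.8%). The median log2 fold change was -0.32. The difference from the class II members was not tested. ERAP2 and ERAP1, the peptidases that trim class I peptides, had log2 fold changes of -0.78 (95% interval -1.26 to -0.30, edgeR adjusted p = 0.799) and -0.78 (-1.44 to -0.13, edgeR adjusted p = 0.808). B2M had 1883 and 2410 TPM in knockout and 3431 and 3217 TPM in wild type, and HLA-C had 281.8 and 385 TPM in knockout and 415.6 and 451.8 TPM in wild type. Genotypes did not overlap for either gene.

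**Figure D4:**
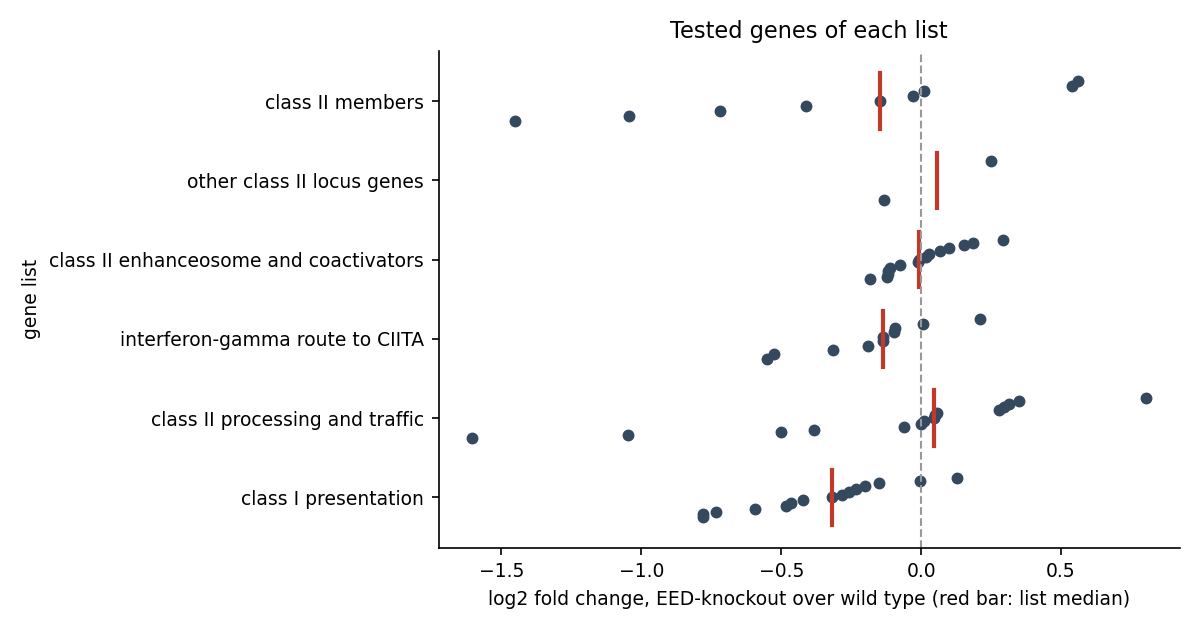
log2 fold change of EED-knockout over wild type for each tested gene of the class II members and of 5 lists, with the list median as a red bar. The members spread from -1.45 (HLA-DQA1) to 0.56 (CD74), the enhanceosome genes sit near 0, and the class I median is -0.32.

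The genes whose 4 log2 CPM values, each centred on its mean, lay closest to those of HLA-DPB1, the member with the highest CPM, were ZNF551, DNAJC10, TXNRD1, GEMIN5 and RANBP2. Their Euclidean distances were 0.0104 to 0.0219, among 12584 protein-coding genes with a median distance of 0.456. With 4 libraries and a nearly flat profile, 1065 genes lay within 0.2.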

How the data were processed

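Deposited estimated counts per transcript came from kallisto 0.43.1 on hg38, per the submitters' processing notes. Deposited TPM values are abundances per effective length scaled to a fixed total, per the file headers. The deposited files also list transcript length and effective length in bases, another kind of value, which was used only to describe transcripts. No source used here states the GENCODE release or the run settings, and positions are from GENCODE 29 (GRCh38). The groups are those of the labels.

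Estimated counts were summed per gene, rounded and tested with edgeR 4.0.16 in R 4.3.3 (TMM factors, filterByExpr with minimum count 10 and minimum total 15, quasi-likelihood F test, no covariate). Intervals come from the fold change and its F statistic. Transcripts were tested alike. CPM uses TMM-scaled library sizes, log2 CPM a prior count of 2. Library totals ranged from 17836112 to 19106382, and on the TMM-scaled sizes 3 counts stood for 0.158 to 0.166 CPM. Floors and limits cover counting error only. Fragments that fit several transcripts are shared out by kallisto's model, which makes paralogs and overlapping genes less certain.

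Members and lists were chosen with earlier results of these data known. The text names all members, EED, and from each list the 2 genes with the highest mean TPM and the 2 with the largest absolute log2 fold change among genes with mean log2 CPM above 1, plus the 5 genes most like the member with the highest CPM. Genes named beside these (DEXI, BRD2, VIM, GLI2, ATOH1, TYROBP and the HLA-DRB paralogs) were chosen after their values were seen. Alternatives were other size factors, no filter, DESeq2 1.42.0, limma 3.58.1 (voom, and trend on log2(TPM + 1) and log2(TPM + 0.1)), the replicate number as a block, leaving out each library, summed paralogs and subtraction of the chromosomal neighbours.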

Additional observations from a re-analysis of the deposited data

How the results depend on the processing

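No member and no member transcript was called under any alternative run, though DESeq2 gave the transcripts HLA-DQA1-001 and HLA-DPB1-002 no adjusted p. Over all genes DESeq2 called 68, and leaving out 1 library gave 0 to 95 calls (92 without knockout 1, 95 without knockout 2, 4 without wild type 2, 0 without wild type 1). The lone library of a genotype was then assumed to vary like the other genotype. Every other setting called 0 genes. CIITA, HLA-DQA1, HLA-DRB1, HLA-DPA1 and HLA-DMB kept their direction throughout, with HLA-DQA1 at -3.05 to -1.18 (smallest adjusted p 0.199). Members near 0 changed sign: HLA-DQB1 was 0.017 with library totals only, 0.07 less the neighbours' median and -0.38 to 0.26 with a library left out, HLA-DMA 0.17 and 0.23 on the TPM scales and -0.42 to 0.19, HLA-DPB1 -0.13 to 0.17, and CD74 -0.067 to 1.00. With a library left out, RFXANK ranged from -0.064 to 0.40, HLA-DQA1-003 from -0.55 to 0.037 and HLA-DPB1-001 from -0.58 to 0.012. The causes were not tested. HLA-DRA, tested only without the filter, had a log2 fold change of 2.24 (edgeR adjusted p = 0.842).

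The replicate block called 0 genes and gave HLA-DQA1 -1.47 (adjusted p = 1). Same-numbered libraries deviated with r = -0.14 across genes, and the crossed pairing also called 0 (this and the transcript alternatives were added after seeing the data). The smallest difference that could have been called was not computed, for members with under 30 counts per library or for the others. HLA-DQA1 was not called at a log2 fold change of -1.45 (edgeR adjusted p = 0.799). The lack of a call therefore does not exclude a difference of that size in another member.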
